A study of Mus musculus with 82 samples.

Results

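Mat1a, Gnmt, Bhmt, Gamt, Nnmt and Tpmt, 6 genes of the methionine cycle and of methyl transfer to small molecules, were described in liver across BXD mice. The genes were taken by name: every probe whose platform gene symbol was one of these counted, which gave 1 probe per gene, 6 of the 21936 probes on the array. Averaging probes that shared a symbol left 21915 features, of which 3439 carried a gene name.

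Mat1a makes S-adenosylmethionine, the methyl donor of the cell, from methionine. Methyltransferases pass that methyl group on and release S-adenosylhomocysteine, which is broken down to homocysteine, and homocysteine is either methylated back to methionine or drawn off into cysteine synthesis. The liver carries most of this traffic: Gnmt, a glycine N-methyltransferase, uses up surplus S-adenosylmethionine, Bhmt remethylates homocysteine with a methyl group from betaine, Gamt makes creatine from guanidinoacetate, Nnmt methylates nicotinamide, and Tpmt methylates thiopurine drugs.

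The BXD strains are inbred lines derived from a cross of C57BL/6J (B6) and DBA/2J (D2), so each strain carries a fixed mosaic of the parental genomes. The series held 82 2-colour arrays. On 72 of them, 32 from males and 40 from females, liver RNA of 17 BXD strains was set against 1 common RNA mix of day 17.5 embryos, which the series text calls B6. Another 2 arrays set B6 male liver against the same mix, 6 set B6 liver directly against D2 liver (3 male, 3 female), and 2, 1 per sex, compared samples called enriched of B6 and D2, without saying what was enriched. The series text gives an age of 10 to 20 weeks for all mice, and speaks of 18 BXD strains and of 3 unfasted males each, while the labels name 17 strains and both sexes. It does not say whether the livers of a strain were pooled, so p-values measure the spread between these samples and strains.

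All values below are log2 ratios, in which a difference of 1 is a 2-fold change. On a forward array the liver RNA was named first; on a swapped array the order was reversed. The labels name the same dye for both channels, so the direction was read from genes outside the set: on 74 of 74 arrays against the embryo mix the median of 7 hepatocyte genes lay above that of 11 embryonic genes, with a lowest hepatocyte median of 2.42 and a highest embryonic median of -0.28. The ratio of B6 to D2 was read by the same rule of channels, so its direction is likely but was not checked by such a list. The SD over probes was 0.69 to 1.12 on the BXD arrays and 0.28 to 0.64 on the B6 against D2 arrays. Both orientations exist for males and females of 13 strains, while BXD8, BXD9, BXD14 and BXD27 had forward arrays only.

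A pair of swapped arrays went against their labels. After the mean of each orientation was removed, a swapped array correlated with the forward array of its own label at up to 0.72 over all probes. The swapped arrays labelled BXD6 female and BXD21 female replicate 2 did so at -0.07 and -0.03, the lowest of 32 pairs. Next came BXD31 female replicate 1 at 0.058 and BXD21 female replicate 1 at 0.060, so the gap to other pairs was small. Set crosswise, the array labelled BXD6 female correlated at 0.20 with the forward array of BXD21 female replicate 2. The array labelled BXD21 female replicate 2 correlated at 0.46 with the forward array of BXD6 female. For the array labelled BXD21 female replicate 2 this was the best match among 42 forward arrays, but the array labelled BXD6 female matched the forward array of BXD32 male best, at 0.35, and only 17 of the 32 swapped arrays matched their own forward array best, so which sample the former holds was not settled. The genes described here were among those that differed. Nnmt was 2.32 on the forward and 4.46 on the swapped array labelled BXD6 female, and 4.12 and 2.30 on those labelled BXD21 female replicate 2. Over the other 30 pairs the swapped Nnmt value was on average 0.22 higher (SD 0.36), and no pair was apart by more than 1.21. Tpmt differed in the same directions, with 1.41 and 2.73 for BXD6 female and 2.79 and 1.11 for BXD21 female replicate 2. Gamt was 2.46 and 0.64 for BXD6 female, the widest gap of the 32 pairs, and 1.62 and 1.71 for BXD21 female replicate 2. The arrays were kept under their labels, and the values and calls of Nnmt, Tpmt and Gamt that moved most are also given without them.

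**Figure D1:**
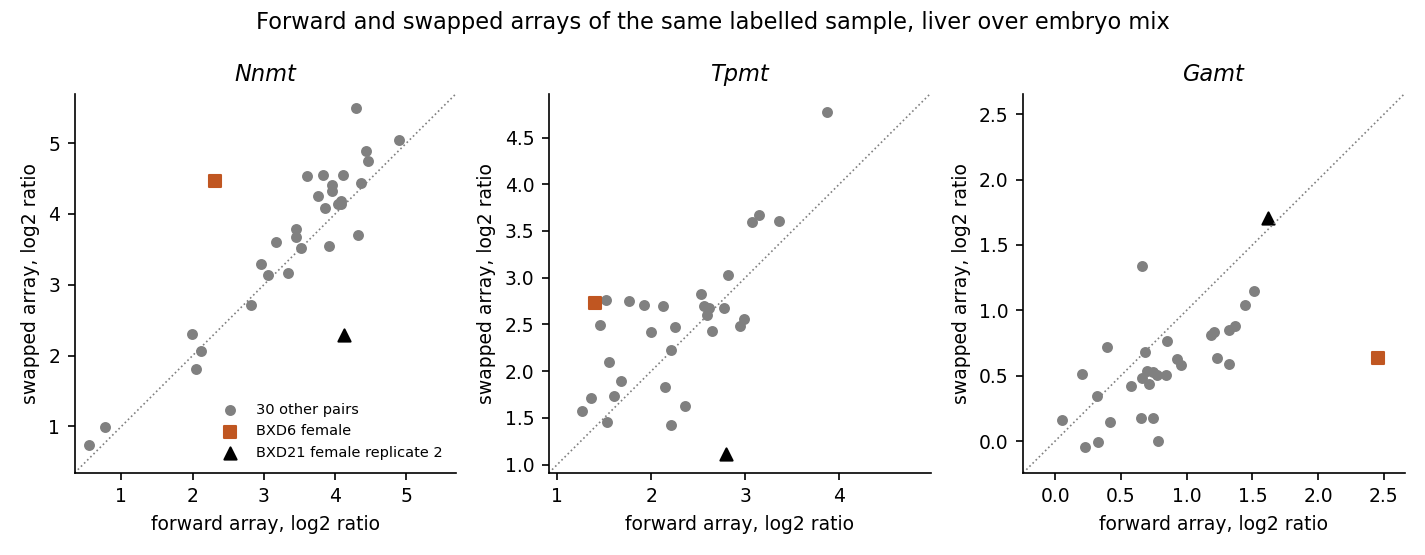
Log2 ratio of liver over the embryo mix on the forward array (horizontal axis) and the swapped array (vertical axis) of each labelled sample, for Nnmt, Tpmt and Gamt; the dotted line marks equal values. In the Nnmt panel the BXD6 female pair (2.32 and 4.46) and the BXD21 female replicate 2 pair (4.12 and 2.30) lie off the line on opposite sides, while the other 30 pairs are within 1.21 of it.

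The promoters of these genes are given as background. Whether their sequence bears on the level of a gene was not tested. RefSeq promoter windows of the GRCm38.p6 build were at hand for 4 of the 6 genes, and Mat1a and Nnmt were not listed. Each line gives the 250 bases before the annotated start, 5' to 3'. Capitals mark matches, on either strand, to GGGCGG, the GC box, and AGGTCA, the half-site of nuclear receptors; both were added to the search after the sequences had been seen.
Gnmt: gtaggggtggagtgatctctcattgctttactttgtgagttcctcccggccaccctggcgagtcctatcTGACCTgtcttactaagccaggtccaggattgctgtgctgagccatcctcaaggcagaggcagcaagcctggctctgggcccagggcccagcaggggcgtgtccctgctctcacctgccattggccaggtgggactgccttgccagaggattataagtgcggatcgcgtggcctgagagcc
Bhmt: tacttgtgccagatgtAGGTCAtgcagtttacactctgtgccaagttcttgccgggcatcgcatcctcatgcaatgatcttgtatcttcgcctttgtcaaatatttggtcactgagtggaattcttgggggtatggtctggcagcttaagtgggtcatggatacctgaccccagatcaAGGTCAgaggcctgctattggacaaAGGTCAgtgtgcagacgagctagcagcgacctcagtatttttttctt
Gamt: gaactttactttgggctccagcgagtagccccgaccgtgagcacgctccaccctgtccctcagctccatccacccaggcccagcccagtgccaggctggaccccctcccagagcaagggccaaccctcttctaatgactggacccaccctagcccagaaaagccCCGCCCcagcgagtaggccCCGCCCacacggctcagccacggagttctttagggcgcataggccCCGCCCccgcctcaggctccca
Tpmt: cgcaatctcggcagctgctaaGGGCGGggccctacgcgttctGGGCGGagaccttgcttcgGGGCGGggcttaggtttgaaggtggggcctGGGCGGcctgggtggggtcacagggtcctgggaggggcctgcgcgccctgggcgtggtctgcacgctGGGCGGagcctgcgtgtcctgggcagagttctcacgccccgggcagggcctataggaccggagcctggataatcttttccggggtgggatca

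All 4 genes lie on the minus strand: Gnmt at chr17:46729166-46729415, Bhmt at chr13:93637759-93638008, Gamt at chr10:80261013-80261262 and Tpmt at chr13:47043218-47043467. The Tpmt window held 5 GC boxes and the Gamt window 3, and neither Gnmt nor Bhmt had a match, while 32.7% of 32851 promoter windows held at least 1. AGGTCA stood 3 times before Bhmt and 1 time before Gnmt, against 14% of all windows with a match. Of the bases, 69.2% were G or C in the Tpmt window, 66.8% in Gamt, 60.4% in Gnmt and 48.0% in Bhmt; 10.4%, 14.2%, 27% and 66.2% of all windows had at least as much. The Tpmt window also held the most CG pairs, 19, against 12 in Gamt, 6 in Gnmt and 5 in Bhmt. No window matched TATAAA (the TATA box, in 12.4% of all windows), GTTAAT or the full HNF1 palindrome (6.43% and 0.01%), the HNF4 motif CAAAGTCCA or a direct repeat of AGGTCA spaced by 1 base (0.38% and 0.03%), TTGCNNAA of C/EBP (9.56%) or TTCNNNGAA of STAT5 (7.02%).

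In adult liver, transcripts of 5 of the 6 genes were well above the embryo mix in every strain mean, and Gamt was 1.64-fold above it. Gnmt stood highest, at 4.71 ± 0.19 (SD over 13 strains), 26.1-fold over the mix, and Mat1a followed at 4.26 ± 0.14, 19.1-fold. Nnmt reached 3.62 ± 0.89 (12.3-fold), Bhmt 2.81 ± 0.43 (7.02-fold) and Tpmt 2.47 ± 0.56 (5.55-fold). Gamt was at 0.71 ± 0.35. As these are bulk samples, more hepatocytes and more RNA per cell cannot be told apart, nor a change in the liver from one in the embryo mix. Each probe has its own ratio, so the order says how far each gene exceeds the embryo, not which transcript is most abundant.

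On the 72 single BXD arrays the genes also differed in spread. Mat1a ran from 3.46 through a median of 4.19 to 5.41, and Gnmt from 3.71 through 4.70 to 5.39. Both genes stayed high on every array, in a narrower range than the rest of the set. The Mat1a value of 5.41 came from the forward array of BXD16 male, whose swapped array gave 4.015. Bhmt ran from 0.82 through 2.86 to 3.76, Nnmt from 0.54 through 3.84 to 5.50, and Tpmt from 1.11 through 2.46 to 4.77. Gamt ran from -0.13 through 0.69 to 2.46 and was above 0 on 68 of 72 arrays, whereas the other 5 genes were above 0 on all 72; of all features, 8.35% were. B6 male liver, on 1 forward and 1 swapped array, gave 4.24 and 4.53 for Mat1a, 4.84 and 5.10 for Gnmt, and 2.72 and 3.09 for Bhmt. Gamt was at 0.69 on both, Nnmt at 3.76 and 4.25, and Tpmt at 1.36 and 1.71.

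With strains as replicates and limma across all features, a feature was called when its Benjamini-Hochberg adjusted p was under 0.05 and its ratio at least 2-fold either way. By that rule 13.9% of features were called, 4.69% of all features being higher and 9.17% lower in liver, and 5 of the 6 genes were called higher. The adjusted p (limma, n = 13 strains) was 1.21e-20 for Mat1a, 6.51e-20 for Gnmt, 1.05e-10 for Tpmt, 2.84e-10 for Nnmt and 7.60e-13 for Bhmt. Gamt passed the p threshold (adjusted p 1.43e-06, limma) but not the size threshold. The same 5 genes were called in males alone, in females alone, on forward or swapped arrays alone, and without the arrays labelled BXD6 female and BXD21 female replicate 2.

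**Figure D2:**
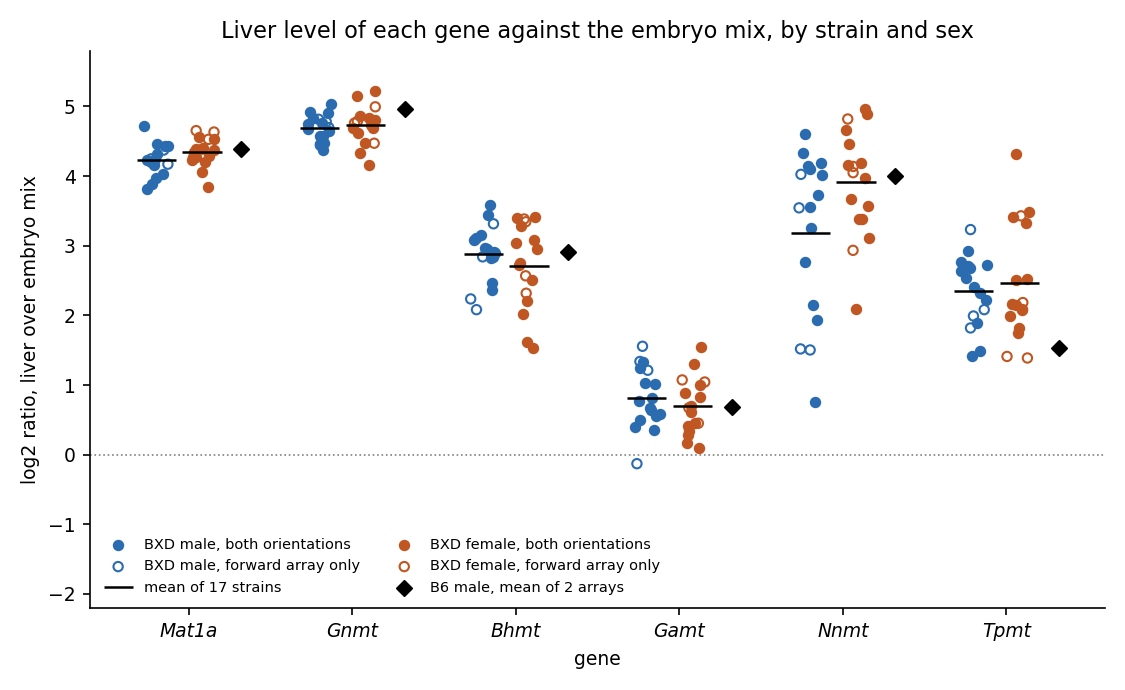
Log2 ratio of liver over the embryo mix for each gene (vertical axis); each point is 1 BXD strain and sex, open where only a forward array exists, bars are means of 17 strains and diamonds are B6 males. Mat1a and Gnmt lie between 3.82 and 5.22, Nnmt spreads from 0.76 to 4.97, and Gamt lies lowest, between -0.13 and 1.56.

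Other genes of one-carbon and methyl metabolism did not share this liver excess as a group. Of 131 genes listed for these pathways, 42 were measured; 8 were called higher and 8 lower, with a median of -0.05 against 0.07 for all features. Methyltransferases acting on small molecules were called higher in 3 of 4 cases: Inmt, an indolethylamine N-methyltransferase, at 3.51, Pemt, which makes phosphatidylcholine in liver, at 2.02, and As3mt, the arsenite methyltransferase, at 1.10 (standard errors 0.11, 0.05 and 0.08). Aox1, an aldehyde oxidase that oxidizes methylated nicotinamide, was called higher at 1.39. Those called lower included the creatine kinases Ckb at -3.65 and Ckmt1 at -1.05, the folate genes Mthfd2 at -1.49 and Folr1 at -1.0, the protein methyltransferases Prmt1 at -2.28 and Ezh2 at -2.52, and Ggt1, a glutathione-degrading enzyme, at -2.83. Of the 11 protein, DNA and RNA methyltransferases measured, only Carm1, an arginine methyltransferase, was called higher, at 1.06.

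The genes fell apart when strains were compared. Mat1a and Gnmt varied least of the set: the SD over 13 strain means was 0.14 for Mat1a, at the 47th percentile of all features, and 0.19 for Gnmt, at the 66.9th, and the median over all features was 0.149. Nnmt had an SD of 0.89, the 12th largest of 21915. Tpmt at 0.56 and Bhmt at 0.43 lay at the 99.3rd and 97.6th percentiles, and Gamt at 0.35 at the 94.5th. Between the lowest and the highest strain, Nnmt ranged 6.24-fold (BXD19 to BXD12), Tpmt 3.7-fold (BXD18 to BXD28), Bhmt 2.76-fold (BXD32 to BXD28), Gamt 2.01-fold (BXD16 to BXD6), Gnmt 1.70-fold (BXD32 to BXD5) and Mat1a 1.37-fold (BXD6 to BXD16). Without the 2 swapped arrays that went against their labels, BXD6 became the lowest strain for Nnmt, at 1.54 in place of 2.07, and the range was 8.63-fold. BXD6 was then also lowest for Tpmt, at 1.65 (3.73-fold), and its Gamt was 1.74 in place of 1.28 (2.76-fold).

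Nnmt had the largest spread over strains of the 6 genes. In BXD19 it was low in both sexes, at 2.04 and 1.81 on the male and 2.11 and 2.06 on the female arrays. BXD6 males were lowest of all, at 0.54, 0.73, 0.78 and 0.99 on 4 arrays from 2 replicates. BXD32 was intermediate, at 2.81 and 2.71 in males and 2.96 to 3.29 on 4 female arrays. BXD12, BXD28, BXD5 and BXD18 stood at the top, with means of the sexes of 4.65, 4.45, 4.42 and 4.39. These neighbours differed by less than the residual SD of 0.60 that sex and strain left, as did BXD19 and BXD6 at the bottom with 2.01 and 2.07. Single arrays of the 4 top strains started at 3.71, and those of BXD19, of BXD6 males and of BXD32 were lower. These groups were picked as low or top from the same values, so their separation is a description and not a test. BXD6 females gave 2.32 and 4.46, the latter on the array that went against its label.

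Tpmt was highest in BXD28, with 2.99 and 2.55 in males and 3.87 and 4.77 in females. It was lowest in BXD18 (1.66) and BXD19 (1.71) among the 13 strains, and the forward-only strains BXD8 and BXD14 gave 1.60 and 1.70. Adjacent strains differed by less than the residual SD of 0.49. Bhmt was lowest in BXD32, at 2.67 and 2.25 in males and 1.72, 1.53, 1.30 and 1.90 in females. BXD31 females were lower still than their males: 5 arrays of 3 replicates gave 0.82 to 2.17, against 3.19 and 3.03 in the males. BXD28 had the highest Bhmt, at 3.76 and 3.40 in males and 3.51 and 3.33 in females. Gamt was lowest in BXD16 (0.28) and BXD19 (0.32) and highest in BXD6 (1.28), BXD28 (1.17) and BXD15 (1.06) among the 13 strains, and the BXD6 value includes the array that went against its label. The forward-only strain BXD14 gave 1.21. Forward-only values are not directly comparable with means of both orientations. Over the 30 pairs without those 2 labelled samples, swapped minus forward averaged 0.22 ± 0.50 (SD) for Tpmt and -0.25 ± 0.31 for Gamt. Those left out were BXD6 female and BXD21 female replicate 2.

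A moderated F test over the 13 strains, with sex as a term and male and female as the replicates of a strain, called 1.2% of features and 0 of the 6 genes. At an unadjusted p under 0.05, 3016 features passed, and 4 of the 6 genes did: Gamt with 0.00119, Nnmt with 0.00135, Tpmt with 0.0193 and Bhmt with 0.0274 (limma). After adjustment over all features, p was 0.0696 for Gamt, 0.0749 for Nnmt, 0.266 for Tpmt, 0.300 for Bhmt, 0.547 for Gnmt and 0.820 for Mat1a (limma). Nnmt was called without the 2 swapped arrays that went against their labels (adjusted p 0.00707, limma) and without strains BXD6 and BXD21 (0.0301). Leaving out BXD6 alone also called Nnmt (0.0215). Gamt was called without both strains (0.0157) and without BXD21 alone (0.0415), but not without the 2 arrays.

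**Figure D3:**
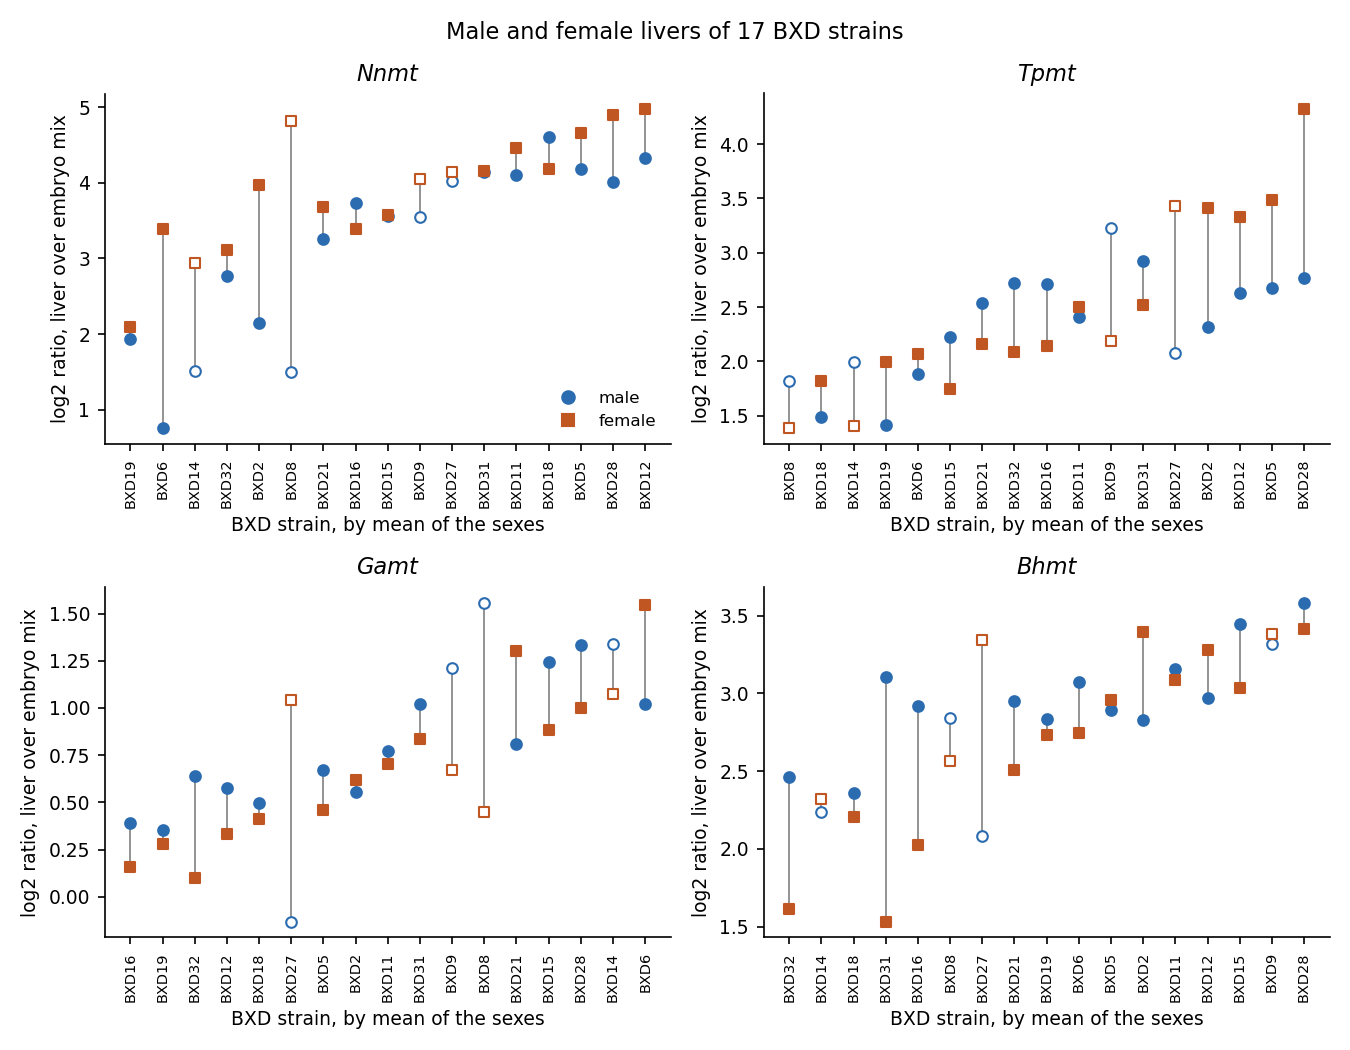
Log2 ratio of liver over the embryo mix in males (circles) and females (squares) of 17 BXD strains for Nnmt, Tpmt, Gamt and Bhmt, sorted by the mean of the sexes in each panel; open symbols are single forward arrays. Nnmt is low in both sexes of BXD19 (1.93 and 2.09), and lower in males than in females of BXD8 (1.5 against 4.82) and BXD6 (0.76 against 3.39); the BXD6 female value averages 2.32 and the 4.46 of an array that went against its label.

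Males and females of a strain were separate samples of 1 genotype, so their agreement over 13 strains was a second view of the same strain values. It was closest for Gamt (Pearson r 0.71, Spearman rho 0.80) and Nnmt (r 0.67, rho 0.80). Bhmt (r 0.50, rho 0.40) and Tpmt (r 0.49, rho 0.63) were intermediate, while Gnmt (r 0.18, rho 0.14) and Mat1a (r -0.20, rho -0.17) showed little; the median r of all features was 0.157. In a two-sided permutation test with 100000 resamples, p for r was 0.00698 for Gamt, 0.0124 for Nnmt, 0.0824 for both Bhmt and Tpmt, 0.555 for Gnmt and 0.520 for Mat1a. By rho, p was 0.00178 for both Gamt and Nnmt, 0.0254 for Tpmt, 0.182 for Bhmt, 0.640 for Gnmt and 0.579 for Mat1a. None of the 6 passed after adjustment over all features (for r, 0.278 for Gamt, 0.339 for Nnmt, 0.569 for Bhmt and Tpmt, 0.884 for Gnmt and 0.873 for Mat1a; for rho, at least 0.197), and 0.192% of features did. Without the 2 strains farthest from the male median, r was 0.79 for Gamt, 0.59 for Nnmt, 0.35 for Bhmt and Tpmt, -0.07 for Gnmt and -0.34 for Mat1a. Without the 2 swapped arrays that went against their labels, Nnmt agreed more closely (r 0.81) and Gamt less (r 0.61). Neither passed after adjustment over all features (0.122 and 0.364, permutation test of r). Leaving out the 2 strains farthest from the male median as well gave an r of 0.56 for Nnmt (without BXD6 and BXD19) and 0.745 for Gamt.

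Nnmt, whose enzyme consumes S-adenosylmethionine to clear nicotinamide, was the only gene of the set that differed between the sexes by the test. Over 17 strains it was 3.18 ± 1.18 in males and 3.91 ± 0.78 in females, and the groups overlapped widely. Within strains it was higher in females in 15 of 17, by 0.73 ± 1.02 (SD of the differences), 1.65-fold. The smallest difference was -0.41 in BXD18 and the largest 3.32 in BXD8, with a median of 0.42. The largest differences were those of BXD8, BXD6, BXD2 and BXD14, whose males were low. The BXD6 difference was 2.63, and 1.56 without the array that went against its label. BXD8 gave 1.5 on its male and 4.82 on its female array, BXD2 gave 1.99 and 2.31 in males and 3.86 and 4.08 in females, and BXD14 gave 1.52 and 2.93. In BXD15 and BXD31 females were higher by 0.006 and 0.02.

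Limma with strain as a term gave an adjusted p of 0.0188 for Nnmt. The test called 33.7% of features (16.5% higher in females), so 1 of 6 was a smaller share than in the array as a whole. The call was lost on forward arrays alone (0.60, adjusted p 0.0517), on swapped arrays alone (0.70, 0.0636) and in the 13 strains with both orientations (0.54, 0.0561), and the difference was positive in each. The sexes were also partly separated in the order of deposit. Over 5 stretches of consecutively deposited arrays that held both sexes, Nnmt was higher in females in 5 of 5, by 0.11 to 1.83. Most of these stretches set males of some strains against females of others, so strain and sex cannot be told apart there. With stretch as a term next to strain, the adjusted p was 0.217 (limma, difference 0.70). Without the 2 swapped arrays that went against their labels, and with no stretch term, the adjusted p was 0.0140 (limma, difference 0.69).

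**Figure D4:**
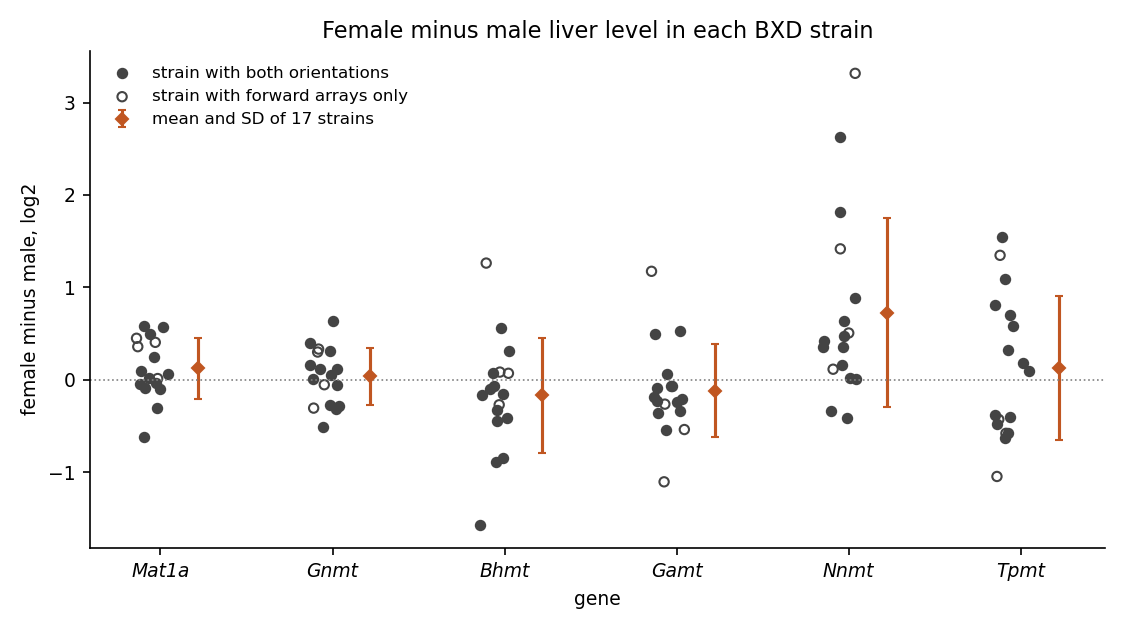
Female minus male log2 ratio in each of 17 BXD strains (points, open where only forward arrays exist) with the mean and SD (diamonds). Nnmt differences run from -0.41 to 3.32 with 15 above 0, and those of Mat1a and Gnmt stay between -0.62 and 0.64.

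The other 5 genes had no sex difference past the threshold. Bhmt was lower in females in 11 of 17 strains, by -0.17 ± 0.62 (adjusted p 0.375, limma), with differences from -1.58 in BXD31 to 1.26 in BXD27. Gamt was lower in females in 13 of 17, by -0.12 ± 0.50 (0.464). In BXD27, Gamt rested on 1 array per sex, -0.13 in the male and 1.04 in the female, and in BXD8 the order was the opposite, 1.56 and 0.45. Tpmt differed by 0.13 (0.621), with 9 strains higher and 8 lower in females and a spread from -1.05 in BXD9 to 1.55 in BXD28. Mat1a differed by 0.12 (0.244) and Gnmt by 0.04 (0.745). Within the 5 deposit stretches, most of which set different strains against each other, Bhmt ran from -0.86 to 1.26 and Gamt from -0.58 to 1.17. Tpmt ran from -0.67 to 1.35, Mat1a from -0.50 to 0.27 and Gnmt from -0.31 to 0.18.

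Of the 42 other pathway genes, 11 were called higher in females and 5 lower, with a median of 0.08 against 0.02 for all features. These were 38.1% of them, beside 33.7% of all features, 16.5% higher and 17.2% lower in females. Pemt (0.54) and As3mt (0.40) were called higher among the small-molecule methyltransferases, as were Nampt, which recycles nicotinamide to NAD, at 0.64, and Sat1, a polyamine acetyltransferase, at 0.67. Carm1 (-0.82) and Aprt, an adenine salvage enzyme (-0.65), were called lower in females. Genes known for sex-biased liver expression were called in 8 of 8 cases, among them Cyp2b9, a cytochrome P450, at 2.19 and Cyp7b1, an oxysterol hydroxylase, at -2.54. The hepatocyte list, at 2.47 to 3.0 over male and 2.45 to 3.02 over female strain means, had 0 of 7 genes called; the 4 macrophage genes lay at -0.10 to 0.73 and 0.03 to 0.85. Females were called higher for 2 of 4 macrophage genes (C1qa and C1qb, while Cd5l and Marco were at -0.18 and -0.10), 2 of 4 stellate and fibroblast, 2 of 4 lymphocyte and 2 of 4 pericentral hepatocyte genes, and of 5 endothelial genes 1 was called higher and 2 lower. Their part in the Nnmt difference was not tested.

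Between the parents, Tpmt was lower in B6 than in D2 liver in both sexes. The log2 ratio of B6 over D2 was -0.90 and -1.32 on the forward and swapped arrays of male replicate 1 and -1.57 on that of male replicate 2. In females it was -1.17 and -1.48 for replicate 1 and -1.37 for replicate 2. All 6 arrays lay below 0. Averaging the arrays of a replicate gave 4 values with a mean of -1.34 ± 0.19 (SD), a 2.53-fold difference. On the arrays against the embryo mix, B6 male Tpmt was 1.54 as the mean of 2 arrays. Of the 13 BXD strains, 2 had a lower male value (range 1.42 to 2.93). That number was 9 for Mat1a, 12 for Gnmt, 5 for Bhmt, 7 for Gamt and 7 for Nnmt. Mat1a was thus not low in B6 on these arrays, although it too was below 0 on all 6 direct arrays.

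Limma on the 4 values gave Tpmt an adjusted p of 0.0253. Of all features 0.178% were called, 0.0913% higher and 0.0867% lower in B6, and 1 of the 6 genes was. The call was lost with a mean-variance trend and robust settings (0.442) and without male replicate 1 (0.148), male replicate 2 (0.204) or female replicate 1 (0.245), and the ratio stayed between -1.42 and -1.27. With dye orientation as a term on the 6 arrays it was -1.23; that fit counts both orientations of replicate 1 as separate values, so its p is too small and is not used. Of all features, 9.6% shared a sign on all 6 arrays, and 4.87% were below 0 on all of them.

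**Figure D5:**
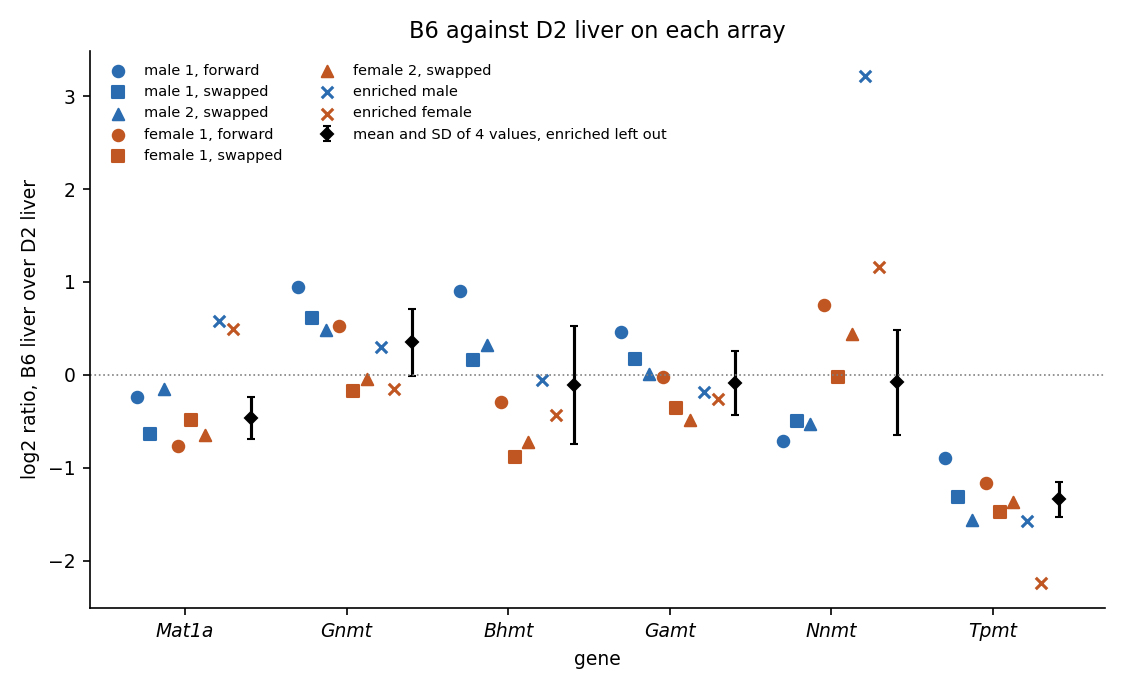
Log2 ratio of B6 over D2 liver on each array (circles forward, squares and triangles swapped, crosses the enriched samples) with the mean and SD of 4 values (diamonds, enriched samples left out). Tpmt lies at -1.57 to -0.90 on the 6 arrays, Bhmt and Gamt lie above 0 in males and below 0 in females, and Nnmt lies at 3.22 and 1.16 on the enriched arrays.

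Mat1a was also below 0 on all 6 arrays, at -0.24, -0.64 and -0.15 in males and -0.77, -0.48 and -0.65 in females, but its mean of -0.47 ± 0.23 was not called (adjusted p 0.278, limma). On the 2 enriched arrays it had the opposite sign, 0.58 in the male and 0.50 in the female, and the ratio with them added was -0.13. Gnmt was 0.95, 0.61 and 0.48 in males and 0.52, -0.17 and -0.05 in females, with a mean of 0.35 ± 0.36 (0.382). The remaining genes took opposite signs in the sexes. Bhmt was 0.90, 0.16 and 0.33 in males and -0.30, -0.89 and -0.73 in females. Gamt was 0.46, 0.18 and 0.01 in males and -0.03, -0.36 and -0.49 in females. Nnmt ran the other way, at -0.72, -0.50 and -0.53 in males and 0.75, -0.03 and 0.44 in females. Their means over both sexes were therefore near 0: -0.12 for Bhmt (0.817), -0.09 for Gamt (0.758) and -0.08 for Nnmt (0.855).

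The difference between the sexes was tested directly as the female minus male term. It was -1.09 for Bhmt (unadjusted p 0.00186, adjusted 0.503, limma), 0.97 for Nnmt (0.00165 and 0.491), -0.57 for Gnmt (0.0336 and 0.631), -0.51 for Gamt (0.0581 and 0.658), -0.34 for Mat1a (0.0996 and 0.670) and -0.01 for Tpmt (0.971 and 0.993). None of the 21915 features passed after adjustment (0.0% called), and 1673 had an unadjusted p under 0.05. Of the 6 genes, Tpmt had the smallest female minus male term. Among the 42 other pathway genes, Xdh, the xanthine oxidase that breaks down thiopurines, was the only 1 called between the parents. It was higher in B6 by 1.76 (standard error 0.17, adjusted p 0.0488, limma), close to the threshold. With trend and robust settings no feature was called, Xdh included.

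The genes rose and fell together over strains only in part. Over 26 values, 13 strains by 2 sexes with the mean of each sex removed, the highest Pearson r between members was 0.60 for Gnmt and Bhmt. Tpmt correlated at 0.52 with Gnmt and at 0.51 with both Bhmt and Nnmt. Gnmt and Nnmt correlated at 0.46, and Bhmt and Nnmt at 0.22. The lowest r, and the only negative one, was -0.16, for Mat1a and Gamt. How high r runs between any 2 features of the array was not computed. These points share arrays and strains, so r is a description. They include the 2 swapped arrays that went against their labels, and no r in this paragraph was computed without those arrays. Among 3433 other named features, the closest to Mat1a were Agxt (0.65), a glyoxylate aminotransferase of liver, P2rx6 (0.58) and Abat (0.57). For Gnmt they were Hgd (0.79), an enzyme of tyrosine breakdown, Fkbp2 (0.78) and Cpq (0.76). For Bhmt they were Hao1 (0.81), a glycolate oxidase, Runx3 (0.79) and Akr1e1 (0.78). Gamt was closest to Psme1 (0.87), a proteasome activator subunit, Slc2a5 (0.83), a fructose transporter, and Dbp (0.78), a clock-controlled transcription factor. Nnmt was closest to Fgl1 (0.75), a protein secreted by hepatocytes, Skap2 (0.66) and Furin (0.63), and Tpmt to C4bp (0.78), a complement inhibitor, Cspg5 (0.75) and Lect2 (0.74). A separate probe named for the pseudogene Bhmt-ps1 stood at 2.93 ± 0.37 over 13 strains, and its r with Bhmt was -0.38. The sequences of the 2 probes were not compared, and whether they share transcripts was not tested.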

How the data were processed

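The authors deposited 1 value per probe and array, read here as a log10 ratio of channel 2 over channel 1: values stop at 2 and -2, 94 lie at that bound and 2388 are exactly 0. For the logarithm's base, background correction and normalization, the sources used here give nothing. Values were multiplied to log2 and turned so that liver stood over embryo, or B6 over D2. Platform symbols named 3290 probes, 4 had several symbols and were left unnamed, RefSeq accessions named 170, and 18476 had no name; probes of 18 genes with several were averaged. An extra BXD11 female array titled as a dye swap has its channels in the forward order and correlated at 0.85 with its forward and at -0.83 with its swapped array, so it was used as forward. Arrays were averaged within orientation, then across.

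Tests used limma 3.58.1 in R 4.3.3 over all features, with Benjamini-Hochberg adjustment. Agreement of the sexes was tested by permutation (numpy 2.4.6, scipy 1.17.1) and adjusted over all features, where the planned adjustment was over the 6 genes. Procedures were tested on simulated data. Named genes were the 6 members, the 3 most correlated named features of each, and called genes of the pathway lists, at most the 4 largest per list and direction; examples from the sex-biased list were picked after their values were seen. Some listed genes that were counted are not reported here by name. The members, lists and tests were chosen with earlier results of these data known. Alternatives covered centring, quantile scaling, single probes, trend and robust variance, filters, orientation, replicates, strains and left-out values; leaving out the 2 swapped arrays against their labels, or strains BXD6 and BXD21, was chosen after seeing the data. The number of arrays limits the precision.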

Additional observations from a re-analysis of the deposited data

Results flagged for a closer look

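Over the 6 genes, 36 sets of 4 or 5 values were examined, each the arrays of 1 strain and sex or the 4 parental values, and 3 held an array far from the others; chance gives about 1 in 20 sets. Gnmt was 3.71 on the swapped array of BXD32 female replicate 1, with 4.28 as the nearest of 4 arrays. Nnmt was 2.30 on the swapped array labelled BXD21 female replicate 2, with 4.09 as the nearest; this is 1 of the 2 arrays that went against their labels. Tpmt was 1.77 on the forward array of BXD31 female replicate 2, with 2.60 as the nearest of 5.

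The parental ratio took opposite signs in the sexes for 3 genes. Female minus male, it was -1.09 for Bhmt, -0.51 for Gamt and 0.97 for Nnmt, and none of these passed after adjustment over all features (limma).

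The enriched samples, left out of the comparisons except as an alternative, gave B6 over D2 ratios of 3.22 (male) and 1.16 (female) for Nnmt, while the 6 other arrays reached 0.75 in size. For Tpmt the female value was -2.24, beyond the 6 other arrays, and the male value of -1.57 was practically equal to the -1.565 of male replicate 2. Mat1a, at 0.58 and 0.50, had the opposite sign to the 6 other arrays. Each is 1 array, and the labels do not say what was enriched.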

How the results depend on the processing

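The 5 genes called above the embryo mix stayed 5 under each alternative run. For Nnmt between the sexes, 0 of the 6 genes were called on forward arrays, on swapped arrays, in the 13 strains, in the 4 forward-only strains or with deposit stretch as a term, with 0 features called in the 4 strains and 4695 with the stretch term (8025 on the same 40 values without it). Over strains, 164 features were called on forward arrays, 101 on swapped arrays and 5589 with all 17 strains; 1 gene was called on forward arrays, with replicate 1, without the 2 swapped arrays against their labels and with 17 strains, and 2 without BXD6 and BXD21. Leaving out strains gave 139 to 278 features and 0 to 1 genes, 139 without BXD15. Agreement of the sexes called 42 features, 0 on forward or on swapped arrays, 12 without BXD6 and BXD21, and 3187 with 17 strains. The 4 strains added in these runs with 17 strains had forward arrays only, so strain and dye orientation cannot be told apart there.

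B6 against D2 gave 39 features, 0 with trend and robust settings (0 genes), 274 with a dye term and 510 with the enriched arrays; leaving out values gave 0 to 29 features and 0 to 1 genes. Replicate numbers 1 and 2 are not tied to a shared batch in the labels, and deviations of same-numbered samples correlated at 0.33; with the replicate block 9 features and 0 genes were called, and Tpmt stayed at -1.34 with an adjusted p of 0.0593 (limma).

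Signs that turned, none of them called: female minus male, Mat1a was -0.025 and Gnmt -0.092 with quantile scaling, Mat1a -0.096 and Gnmt -0.00083 on forward arrays, Bhmt 0.285 and Tpmt -0.178 in 4 strains, Gnmt -0.0497 and Tpmt -0.373 with the stretch term, and Gnmt -0.0015 to 0.0702 with a strain left out. For B6 over D2, Bhmt was 0.0105 and Gamt 0.0259 with a dye term and Nnmt 0.674 with the enriched arrays. With 1 of the 4 values left out, Bhmt ran from -0.331 to 0.0881, Gamt from -0.225 to 0.0454 and Nnmt from -0.258 to 0.0911. The causes were not tested.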
